A study of Mus musculus with 12 samples.

Results

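YY1 is a transcription factor with zinc fingers, which contact DNA at promoters and enhancers through a motif built on the letters GCCAT. INO80 is a chromatin remodeling complex that uses ATP to slide nucleosomes and to exchange histones, and YY1 has been purified with it. In such complexes YY1 is held to bring the remodeler to its target genes, while the remodeler helps YY1 to reach its sites, and both are used by dividing cells of most tissues, blood progenitors included. The genes examined here were Yy1 itself and 9 genes of INO80 subunits: Ino80, Ino80b, Ino80c, Ino80e, Actr5, Actr8, Nfrkb, Ruvbl1 and Ruvbl2. They were chosen by name, and they are 10 of the 21951 protein-coding genes of the GENCODE M21 annotation (mouse genome build mm10, GRCm38). The question asked was where YY1 itself lay on these genes and whether the YY1 peaks there differed when Xist was deleted.

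The data were peak lists from YY1 ChIP-seq of lineage-negative (Lin−) bone marrow cells, that is, the stem and progenitor cells left after mature blood cells have been depleted by their surface markers. All mice were 3-month-old females of the strain background 129Sv4/Jae x B6. Wild-type (WT) mice gave 2 libraries, and the other 2 came from mice that carried the floxed Xist 2lox/2lox allele and a Vav-iCre transgene, in which blood-specific sequences of Vav1 drive the Cre recombinase (XistΔ/Δ). Whether WT mice had the transgene and how many animals gave each library are not in the labels. The methods of the study speak of biological replicates, and the p-values here measure the spread between these 4 libraries.

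Between 9553 and 18113 peaks were listed per library. Depth went with the replicate number: replicate 2 had 50.0 M tags in WT and 59.5 M tags in XistΔ/Δ (tags are aligned reads as the peak caller counts them), and replicate 1 had 24.9 M and 23.1 M tags. At the start of the deleted gene the WT libraries had peaks of 3083 and 3222 bp, and no peak was called within 3 kb of the start in either XistΔ/Δ library. The lists give where each peak lies and how wide it is, and no height. A gene was given the widest peak that reached within 3 kb of any of its annotated transcript starts (TSS-proximal), and that width was turned into a percentile among the 14168 regions called in at least 2 of the 4 libraries, where 0 stands for no peak.

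A cluster of matches to the YY1 motif lay in the first intron of Yy1. The letters AANATGGC, an extended form of the YY1 motif in which N is any base, were searched on both strands. The stretch below, on chromosome 12 from 108794123 to 108794260 of GRCm38 (plus strand, the strand of the gene), holds 4 matches, shown in capitals. The first pair of matches lies on the opposite strand and therefore reads as the reverse complement.
Yy1 intron 1: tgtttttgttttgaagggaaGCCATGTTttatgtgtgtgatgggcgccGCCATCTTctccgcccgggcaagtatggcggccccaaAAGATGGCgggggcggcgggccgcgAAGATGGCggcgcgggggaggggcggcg
The matches began 1170, 1198, 1235 and 1260 bp after the gene start, all within 98 bases and all beyond the end of the first exon. The second and the fourth are part of a longer form, in which N is G and the letters GGC follow. All 4 matches lay under a called peak in each of the 4 libraries.

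Of the 10886 TSS-proximal regions searched over their whole length, 74 (0.680%) held 4 or more matches of AANATGGC. A single region, the one at Yy1, held 4 matches within 98 bases, a span that was itself read from Yy1, so this count is a description. The longer form occurred 2 or more times in 11 of these regions (0.101%). Per kb of region the Yy1 region was less unusual, with 0.97 matches, and 722 regions were as dense or denser. The gene body of Yy1, 27176 bp long, held 3 further matches outside the cluster. In the 500 bases about the centre of the Yy1 region, the main stretch searched, there was no match.

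Among the other genes, 5 had a match somewhere in the region over their starts. Each is shown with 11 bases on either side, written along the strand on which it reads AANATGGC, with the match in capitals, because these are the letters under the peaks described next.
Ino80: cctgggaccccAAGATGGCggcggcgctga
Ino80b: gttttgagaacAAGATGGCattaagcctgg
Ino80e: cctggtgacgcAAAATGGCgccgggagatg
Actr5: atgtattctttAAAATGGCccgtgagcacc
Actr8, first match: tgcccacagtcAAAATGGCcgccaccggcg
Actr8, second match: tagacatgaatAATATGGCaataacagcac
The Ino80 match (chromosome 2, 119477562 to 119477569) is in a UTR and part of the longer form, which 3.18% of the TSS-proximal regions held. The Ino80b match (chromosome 6, 83125329 to 83125336) and the first Actr8 match (chromosome 14, 29978350 to 29978357) also fall in a UTR, 95 and 13 bp after the gene start. The Ino80e match (chromosome 7, 126862449 to 126862456) lies outside Ino80e and in a UTR of Hirip3, the gene on the opposite strand. The second Actr8 match (chromosome 14, 29978934 to 29978941) is in an annotated exon. The Actr5 match (chromosome 2, 158626015 to 158626022) is intronic and lay under a peak in 2 of the 4 libraries, whereas the Ino80, Ino80b, Ino80e and Actr8 matches lay under a peak in all 4.

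The regions at Ino80c, Nfrkb, Ruvbl1 and Ruvbl2 had no match of AANATGGC. At Nfrkb and Ruvbl1 the core GCCAT was missing as well, on both strands of the whole region, although 88.0% of the TSS-proximal regions held it. The 120 bases before the start of each are shown because these were the members with the weakest support for a peak, and they hold none of the 3 forms searched. They lie on chromosome 9 from 31386072 to 31386191 and on chromosome 6 from 88465289 to 88465408, both on the plus strand.
Nfrkb: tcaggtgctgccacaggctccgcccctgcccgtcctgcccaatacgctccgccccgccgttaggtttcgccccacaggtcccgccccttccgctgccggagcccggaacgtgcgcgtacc
Ruvbl1: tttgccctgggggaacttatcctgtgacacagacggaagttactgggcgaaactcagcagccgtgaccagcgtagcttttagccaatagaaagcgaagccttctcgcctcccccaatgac
Absence says only that these letters are not in the window. The main measure was the 500 bases about the centre of each region, and whole regions were an alternative to it. Over whole regions 6 of the 10 genes had a match of AANATGGC, against 29.0% of the 10886 TSS-proximal regions. The first is a share of genes, some with more than 1 region, the second one of single regions, and neither allows for region length. Per kb the matched regions at Ino80, Ino80b, Ino80e, Actr5 and Actr8 held 0.40 to 0.68 matches. Between 1469 and 2709 regions were as dense or denser. Within 500 bases about the centre of the region 3 genes had one (Ino80, Ino80b and Ino80e), against 14.0%, since the Yy1 cluster and the Actr5 and Actr8 matches lie off centre.

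YY1 peaks were found at nearly all of the genes. A TSS-proximal peak was called at 8 of the 10 genes in WT replicate 1, where 39.4% of all protein-coding genes had one, and at all 10 in WT replicate 2, where 47.6% had one. It was called at 9 genes in XistΔ/Δ replicate 1 (39.4% of all genes) and at all 10 in XistΔ/Δ replicate 2 (48.9% of all genes). In all 4 libraries together 8 of the 10 had a peak, all but Nfrkb and Ruvbl1, against 35.7% of all protein-coding genes. In at least 2 libraries all 10 had one, against 47.0%. These shares of all genes include genes that are silent in Lin− cells, and no expression data were used here.

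The mean number of the 10 genes with a peak was 9.50 in XistΔ/Δ and 9.00 in WT, a difference of 0.50 that did not exceed what replicates of one genotype differed by (p = 1.00, two-sided exact permutation test, n = 2 per genotype). The smallest p-value that 2 against 2 libraries can give is 0.33. Peaks along the gene bodies, farther than 3 kb from the start of any gene, were called in 2 or more libraries at 0 of the 10 genes, against 5.10% of all genes. A single such peak was seen in 1 library, at Yy1 in WT replicate 2, where it covered 684 bp of an intron from 108810974 to 108811657 on chromosome 12.

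Yy1 (ENSMUSG00000021264.12, chromosome 12, 108792973 to 108820148, plus strand) encodes YY1, the factor that was precipitated, and had the widest peak of the 10 genes in each library. The peak over its start was 3554 bp in WT replicate 1, 3749 bp in WT replicate 2, 3396 bp in XistΔ/Δ replicate 1 and 3978 bp in XistΔ/Δ replicate 2. The genotypes overlapped, with both XistΔ/Δ widths outside the range of the WT widths, one below and one above it. In the same order these peaks stood at percentiles 99.6, 98.9, 99.8 and 99.3. By width Yy1 was number 56 of the 8644 protein-coding genes with a TSS-proximal peak in WT replicate 1 and number 175 of 10445 in WT replicate 2. It was number 35 of 8642 in XistΔ/Δ replicate 1 and number 125 of 10738 in XistΔ/Δ replicate 2.

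The peaks began between 929 and 1152 bp before the Yy1 start and ended between 2401 and 2886 bp after it. They thus covered upstream sequence, the whole first exon (1119 bp) and the beginning of the first intron, where the 4 motif matches lie, as the map of the Yy1 start shows. In WT replicate 1 a further peak of 501 bp, the least width in that library, lay just beyond the main one. The second annotated start of Yy1, 13266 bp into the gene, had no peak over it. The merged region (4124 bp) also holds the start of Gm34220, a noncoding gene on the opposite strand, and peaks at both genes cannot be told apart. The percentile was 99.3 ± 0.499 in WT and 99.5 ± 0.362 in XistΔ/Δ (SD, n = 2 each), a difference of 0.27 that was smaller than either SD (p = 0.667, two-sided exact permutation test, n = 2 per genotype). Each SD spans both replicate numbers, within which the differences were 0.17 and 0.36. With percentiles among all peaks of a library the genotypes did not overlap, and the difference was 0.33. There p was 0.33 (two-sided exact permutation test, n = 2 per genotype). By order in the deposited list the difference was 0.10.

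**Figure D1:**
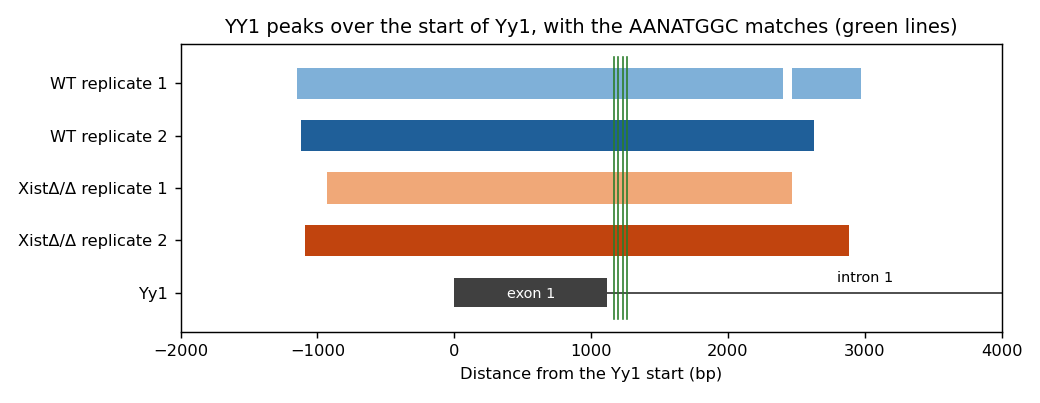
Called YY1 peaks (bars, 1 row per library) around the start of Yy1, with the distance from the gene start in bp on the horizontal axis, the first exon as a dark box, the first intron as a line and the 4 AANATGGC matches as green lines. In every library the widest peak spans the first exon and the matches, which begin 1170 to 1260 bp after the start.

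The 3 genes nearest to Yy1 in their percentiles over the 4 libraries, by the sum of the absolute differences, were Srsf3, a splicing factor gene (sum 0.512), the histone demethylase gene Kdm6a (0.533) and Cox20, a gene for assembly of cytochrome c oxidase (0.603). Their peaks ranged from 3408 to 4234 bp at Srsf3, 3065 to 4141 bp at Kdm6a and 2963 to 4165 bp at Cox20. At the top of the scale many genes have nearly equal percentiles, so closeness here says that all 4 genes had wide peaks.

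Ino80 (ENSMUSG00000034154.15, chromosome 2, 119373042 to 119477687, minus strand) encodes the ATPase that drives the complex. Its peak was 2122 bp in WT replicate 1, 2408 bp in WT replicate 2, 2271 bp in XistΔ/Δ replicate 1 and 2446 bp in XistΔ/Δ replicate 2. These widths stood at percentiles 96.0, 93.0, 98.6 and 93.7, and the genotypes overlapped. The peak was almost centred on the start, with 1099 to 1234 bp before it and 1021 to 1291 bp after it in the 4 libraries. It covered 2 of the 3 annotated starts, those at 0 and 74 bp, and not the start 38007 bp into the gene. The percentile was 1.58 higher in XistΔ/Δ (two-sided exact permutation test, n = 2 per genotype, p = 0.667). With percentiles among all peaks of a library the genotypes did not overlap, and the difference was 2.54. There p was 0.33 (two-sided exact permutation test, n = 2 per genotype). By order in the deposited list the difference was -0.02.

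Ino80b, Ino80c and Ino80e encode small subunits of the complex, and the first and second of them bind to the module around the ATPase. Ino80b (ENSMUSG00000030034.11, chromosome 6, 83121765 to 83125431, minus strand) is a short gene with YY1 peaks at both ends in all 4 libraries. Over its starts the peak was 1031 bp in WT replicate 1, 1295 bp in WT replicate 2, 628 bp in XistΔ/Δ replicate 1 and 1459 bp in XistΔ/Δ replicate 2, so the XistΔ/Δ libraries had both the narrowest and the widest. At its other end a region from 83120765 to 83122461 covers the start of the next gene, Wbp1, and in WT replicate 2 the peak there (1529 bp) was the wider one and was the one counted for Ino80b. Under that rule the percentiles were 73.6 and 74.8 in WT against 50.9 and 72.6 in XistΔ/Δ, a difference of -12.43 with no overlap between genotypes (two-sided exact permutation test, n = 2 per genotype, p = 0.33). The lower value came mainly from XistΔ/Δ replicate 1, the library with the fewest tags. With only those peaks that cover a start of Ino80b, an alternative chosen after seeing the data, Ino80b was no longer lower in both replicate numbers. Nor was it with percentiles among all peaks of a library, where the difference was -15.53. With the order of the peaks in the deposited list in place of width, the genotypes were apart in the opposite direction. The difference was then 4.01, and XistΔ/Δ was higher in both replicate numbers (two-sided exact permutation test, n = 2 per genotype, p = 0.33).

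Ino80c (ENSMUSG00000047989.11, chromosome 18, 24104757 to 24121953, minus strand) had peaks of 768 bp and 1540 bp in WT, and of 752 bp and 1531 bp in XistΔ/Δ. Replicates 1 and 2 differed far more than the genotypes did. The percentiles were 59.7 and 75.1 in WT against 59.8 and 75.1 in XistΔ/Δ, a difference of 0.04 (two-sided exact permutation test, n = 2 per genotype, p = 1.00). The wider replicate 2 peaks reached 1151 and 1152 bp past the gene start, against 579 and 498 bp in replicate 1.

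Ino80e (ENSMUSG00000030689.15, chromosome 7, 126850960 to 126862377, minus strand) shares its start region with Hirip3, a gene for a histone-binding protein, whose nearest start lies 62 bp away on the opposite strand. The peaks were 1277 bp and 1989 bp in WT, and 1418 bp and 1962 bp in XistΔ/Δ, and 13 of the 15 annotated Ino80e starts lie inside the merged region. Ino80e was the only one of the 10 genes at which both XistΔ/Δ percentiles (91.3 and 87.0) were above both WT percentiles (82.7 and 87.0). In replicate 2 the gap was 0.04, although the XistΔ/Δ peak was the narrower one (1962 against 1989 bp), and in replicate 1 it was 8.67. The genotypes overlapped with percentiles among all peaks of a library (difference 7.49) and with the order in the deposited list (2.46). In both cases p was 0.667 (two-sided exact permutation test, n = 2 per genotype), and by order Ino80e was not higher-ranked in both replicate numbers. Under the main rule the mean difference was 4.35 (two-sided exact permutation test, n = 2 per genotype, p = 0.33), and the peak cannot be assigned to Ino80e or Hirip3.

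Actr5 and Actr8 encode actin-related proteins, which join the complex to nucleosomal and linker DNA. Actr5 (ENSMUSG00000037761.16, chromosome 2, 158624888 to 158639211, plus strand) had peaks of 1445 bp and 1427 bp in WT, and of 1068 bp and 1523 bp in XistΔ/Δ. It was the only one of the 8 members with peaks in all 4 libraries at which the replicate 2 peaks were not both wider than both replicate 1 peaks. Its percentiles, 87.1 and 70.7 in WT against 81.2 and 74.9 in XistΔ/Δ, differed in opposite directions in the replicate numbers, by -5.88 in replicate 1 and 4.13 in replicate 2.

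Actr8 (ENSMUSG00000015971.5, chromosome 14, 29978337 to 30006354, plus strand) had the widest peaks after Yy1 in 3 libraries. They were 2670 bp in WT replicate 1, 3728 bp in WT replicate 2, 1596 bp in XistΔ/Δ replicate 1 and 3046 bp in XistΔ/Δ replicate 2. The widths overlapped between genotypes, while the percentiles, 98.6 and 98.9 in WT against 94.1 and 97.4 in XistΔ/Δ, did not. The difference of -2.99 gave the smallest p-value of this design (two-sided exact permutation test, n = 2 per genotype, p = 0.33). It shrank to -0.08 with the order of the peaks in the deposited list in place of width, and was -3.68 with percentiles among all peaks of a library (exact permutation p = 0.667 in both), where the genotypes overlapped. Most of the variation was on the upstream side. The peak began 1552 and 2249 bp before the start in WT and 718 and 1731 bp before it in XistΔ/Δ, and in WT replicate 1 a further peak of 667 bp lay upstream of it. On the downstream side the peaks ended 1117, 1478, 877 and 1314 bp after the start, in the order WT replicates 1 and 2 and XistΔ/Δ replicates 1 and 2. In both directions this widest peak was shorter in XistΔ/Δ than in WT of the same replicate number. Peaks of the whole library were narrower in XistΔ/Δ as well. Their median width was 777 against 892 bp of WT in replicate 1, and 892 against 925 bp in replicate 2. In XistΔ/Δ replicate 2, however, a further peak of 800 bp lay 1725 to 2524 bp after the start, beyond the ends of both WT peaks. Only the 4 starts within 81 bp of the gene start were covered of the 9 annotated.

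Nfrkb (ENSMUSG00000042185.14, chromosome 9, 31386192 to 31421333, plus strand) encodes a large subunit found in animals but not in yeast. It had no peak in either replicate 1 library. In replicate 2 its peak was 1060 bp in WT and 955 bp in XistΔ/Δ. It was the only one of the 10 genes with a peak in both deeper libraries and in neither shallower one, a pattern that 4.34% of all protein-coding genes had. The percentiles in the replicate 2 libraries, 53.3 in WT and 44.7 in XistΔ/Δ, were middling. The absence of a call in the replicate 1 libraries does not show that YY1 was absent there, and the part of depth in it was not tested.

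Ruvbl1 and Ruvbl2 encode AAA+ ATPases that form a ring in INO80, in the SRCAP and TIP60 complexes and in the R2TP chaperone. Ruvbl1 (ENSMUSG00000030079.15, chromosome 6, 88465409 to 88497572, plus strand) had no peak in WT replicate 1 and peaks of 818 bp in WT replicate 2, 631 bp in XistΔ/Δ replicate 1 and 643 bp in XistΔ/Δ replicate 2. It had the narrowest peak of the 10 genes in both replicate 2 libraries. The percentile was 52.99 higher in XistΔ/Δ in replicate 1, where the 631 bp peak is set against the 0 of no called peak. It differed by -19.35 in replicate 2, so no direction was shared. With the first 50% of each list the mean difference at Ruvbl1 was 0.00. With the whole lists the mean difference of 16.82 was smaller than the SD of either genotype, 25.9 in WT and 25.2 in XistΔ/Δ (two-sided exact permutation test, n = 2 per genotype, p = 0.667). Each SD spans both replicate numbers, whose percentile scales differ, and the WT one includes the 0 of no called peak.

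Ruvbl2 (ENSMUSG00000003868.14, chromosome 7, 45421760 to 45438096, minus strand) had peaks of 941 bp and 1427 bp in WT, and of 880 bp and 1469 bp in XistΔ/Δ. No peak lay over its farthest upstream annotated start. The peaks lay 2761 to 4362 bp inside the annotated gene, over 3 of its 8 starts and over the start of Gys1, the muscle glycogen synthase gene, on the opposite strand. The nearest pair of Ruvbl2 and Gys1 starts has 134 bases between them, so the peak belongs to a shared start region. The percentiles were 70.4 and 70.7 in WT against 70.5 and 73.0 in XistΔ/Δ, so the genotypes overlapped. By order in the deposited list the genotypes did not overlap, and the difference was 7.22. There p was 0.33 (two-sided exact permutation test, n = 2 per genotype). With percentiles among all peaks of a library the difference was 3.51, and p was 0.667 in the same test.

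**Figure D2:**
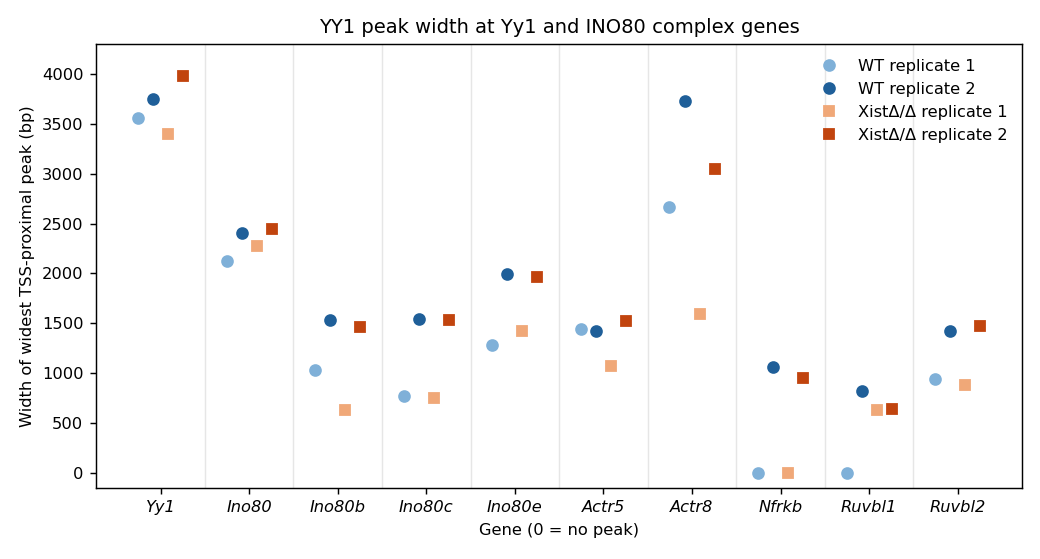
Width in bp of the widest TSS-proximal YY1 peak at each of the 10 genes (vertical axis, 0 where no peak was called) in each library, with WT as circles, XistΔ/Δ as squares and replicate 2 in the darker shade. Yy1 lies between 3396 and 3978 bp in all libraries, and Nfrkb and Ruvbl1 are the genes with values at 0.

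**Figure D3:**
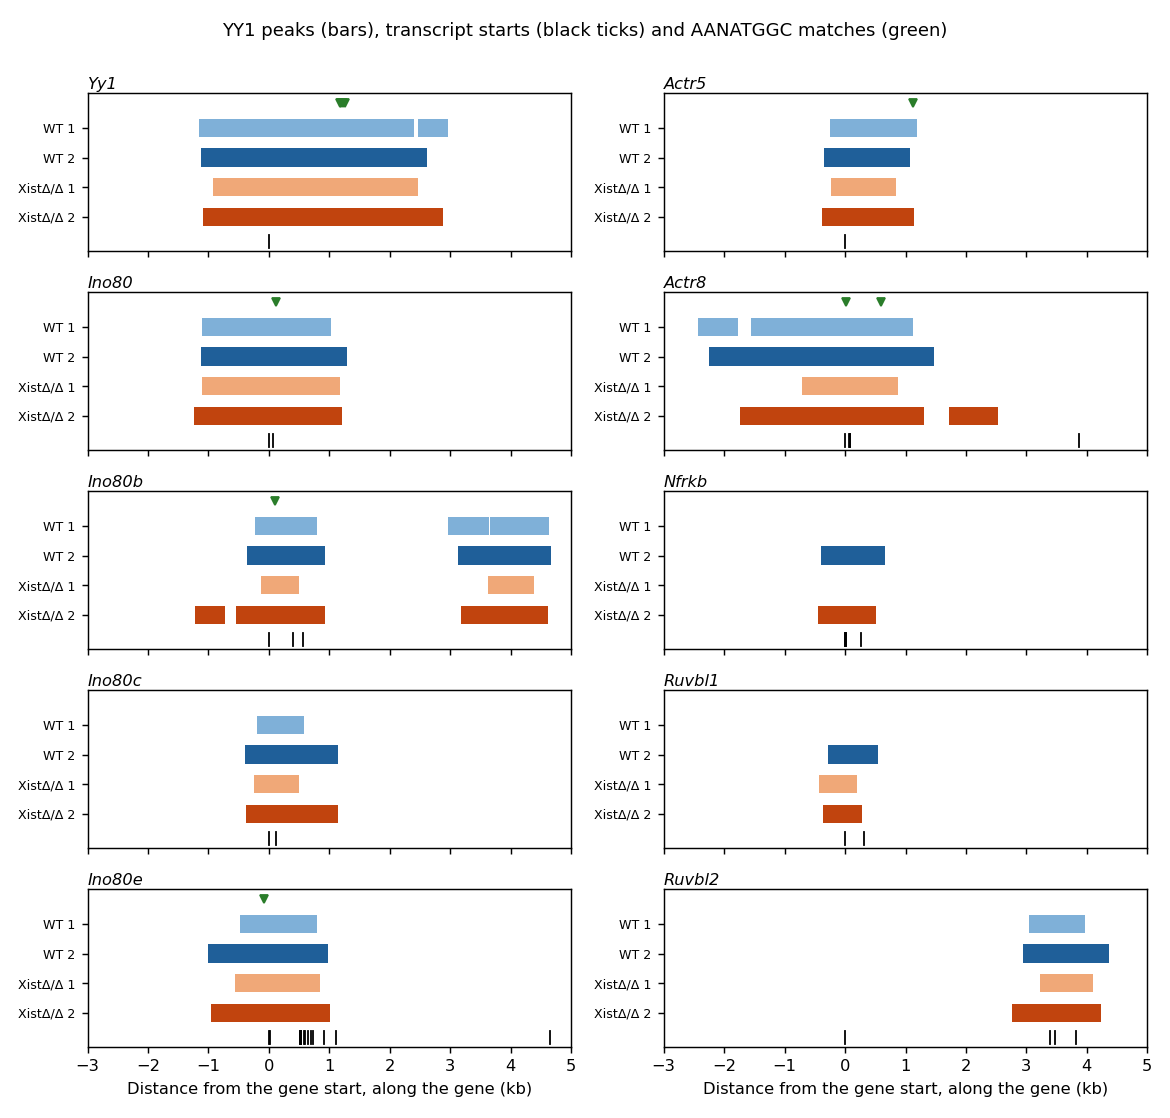
Called YY1 peaks (bars, 1 row per library) from 3 kb before to 5 kb after the start of each gene, drawn along the gene, with annotated transcript starts as black ticks and AANATGGC matches as green triangles. Peaks lie over the gene start at 9 genes, those at Ruvbl2 lie 2761 to 4362 bp inside the gene over other starts, and Ino80b has a further peak at its far end, where Wbp1 starts.

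Peak width went with the replicate number at most of the genes, and depth and replicate number cannot be told apart. Of the 8 genes with a peak in all 4 libraries, 7 had wider peaks in both replicate 2 libraries than in both replicate 1 libraries, and 84.6% of the 7839 protein-coding genes with a peak in all 4 libraries did. The genotypes were therefore compared by percentile, but the percentile scale also differed between replicate numbers. A peak of 501 bp stood at 42.1 in WT replicate 1 (at Tfpt) and at 7.99 in WT replicate 2 (at Rpap3). In XistΔ/Δ the Ruvbl1 peaks of 631 bp and 643 bp stood at 53.0 in replicate 1 and 17.3 in replicate 2. Means, SDs and overlaps taken over both replicate numbers thus mix unlike scales. Within both replicate numbers, 4 genes were higher-ranked in XistΔ/Δ (Yy1, Ino80, Ino80e and Ruvbl2), where 22.6% of the 10327 protein-coding genes with a peak in at least 2 libraries were. The lower-ranked genes were 2, Ino80b and Actr8, where 23.6% of all such genes were. Non-overlapping percentiles with XistΔ/Δ above were seen at 1 gene (Ino80e; 12.2% of all such genes) and with XistΔ/Δ below at 2 genes (Ino80b and Actr8; 13.8% of all such genes).

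Set against 10 genes, the other 3 counts were within 1 gene of these shares, and the 4 higher-ranked genes were above theirs. Of those 4, Yy1 and Ruvbl2 were also higher-ranked with the order of the peaks in the deposited list in place of width, while Ino80b then had a difference of 4.01 in place of -12.43. Without WT replicate 2 the Yy1 difference was -0.11, and without XistΔ/Δ replicate 1 the Ino80 difference was -0.89. The differences within replicate numbers were 0.17 and 0.36 at Yy1, 2.52 and 0.63 at Ino80, and 0.08 and 2.26 at Ruvbl2, in replicates 1 and 2. At Actr8 they were -4.51 and -1.48, and at Ino80b -22.68 and -2.17. The median difference over the 10 genes was 0.15, and over all 10327 genes it was -0.15. None of the 10 differences passed adjustment over all genes with a peak in at least 2 libraries, where each Benjamini-Hochberg adjusted p was 1.00 (two-sided exact permutation test), and the design could not have given a lower raw p-value than 0.33. That is a limit of 2 libraries per genotype and does not show that the genotypes were alike. The median over the 8 genes with a peak in all libraries of their mean percentile was 82.8, beside 73.6 over all such protein-coding genes.

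**Figure D4:**
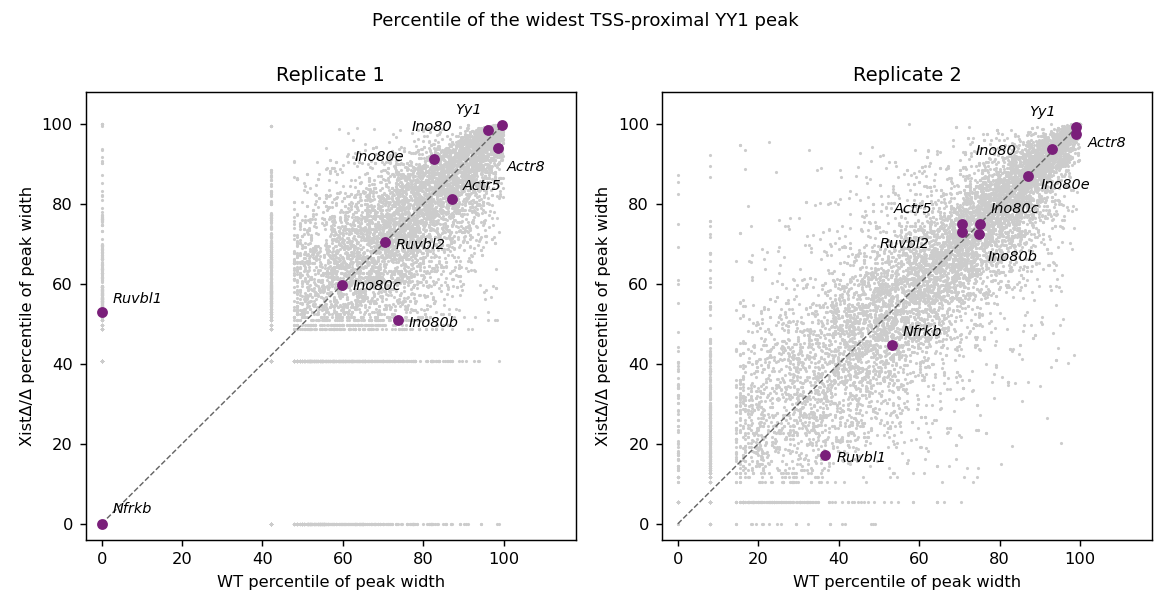
Percentile of the widest TSS-proximal YY1 peak in WT (horizontal axis) and in XistΔ/Δ (vertical axis) for replicate 1 and replicate 2, with the 10 genes in purple, all protein-coding genes with a peak in at least 2 libraries in grey and equality as a dashed line. Yy1 is at the upper right corner in both panels, Ino80b is farther below the line in replicate 1 (73.6 against 50.9) than in replicate 2, and Ruvbl1 lies on opposite sides of the line.

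Further genes of the same complexes were examined for comparison. The other INO80 subunits Ino80d, Actl6a, Actb, Mcrs1, Tfpt and Uchl5 had a TSS-proximal peak in all 4 libraries in 6 of 6 cases, with a median mean percentile of 72.3. Among them Ino80d had peaks near those of Yy1 in width in 3 libraries (3474 and 3685 bp in WT and 3568 bp in XistΔ/Δ replicate 2) and one of 1406 bp in XistΔ/Δ replicate 1. Tfpt was at the other end, with peaks of 501 to 893 bp. At Actb, which encodes the actin that the complex shares with the cytoskeleton, the percentiles were 91.0 and 91.0 in WT against 94.0 and 95.0 in XistΔ/Δ. At Ino80d they were 99.6 and 98.8 in WT against 91.0 and 98.7 in XistΔ/Δ (two-sided exact permutation test, n = 2 per genotype, p = 0.33 for both genes). Within both replicate numbers 1 of the 6 was higher-ranked in XistΔ/Δ (Actb) and 3 were lower-ranked (Ino80d, Actl6a and Tfpt). The shares of all genes with a peak in at least 2 libraries were 22.6% and 23.6%. The median difference over the 6 was -5.47.

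The SRCAP and TIP60 complexes exchange or acetylate histones and use the same RUVBL ring. All 17 of their genes examined had a peak in all 4 libraries, with a median mean percentile of 76.1. In both replicate numbers 5 of the 17 were higher-ranked and 5 lower-ranked in XistΔ/Δ. Among all genes with a peak in at least 2 libraries 22.6% were higher-ranked and 23.6% lower-ranked. Epc1, a TIP60 scaffold gene, had the widest peaks of that list, from 2145 to 2952 bp. Of the R2TP chaperone partners of RUVBL1 and RUVBL2, Pih1d1 and Uri1 had a peak in all 4 libraries, and Rpap3 had one of 501 bp in WT replicate 2 only. Yy2 and Zfp42, which encode zinc-finger proteins related to YY1, had no TSS-proximal peak in any of the 4 libraries. These lists were read by the same rule as the 10 genes, and the share of all protein-coding genes with a peak in all 4 libraries, 35.7%, applies to them too.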

How the data were processed

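YY1 was immunoprecipitated by the authors from chromatin digested with micrococcal nuclease. Per the study's methods, trimmed reads were aligned to mm10 with Bowtie2 (2.3.5.1 in the submitters' processing notes), filtered at mapping quality 30 and cleared of duplicates, and HOMER, whose version the methods and the processing notes give differently, called peaks. Per the file headers, calling was per library, at a false discovery rate of 0.001 and 4-fold over the local background, with 500 bp peaks joined into wider ones and no input library named, so open chromatin can also yield peaks. Every peak has the score 1 in the files the authors deposited, hence width was ranked. Libraries were grouped and numbered by the labels. The headers number the replicates otherwise, but libraries with the same label number share a number in their directory names, whose meaning is not stated.

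Python 3.11.15 with NumPy 2.4.6 and SciPy 1.17.1 joined peaks sharing 1 bp into regions, kept those of at least 2 libraries, gave percentiles with ties averaged, and searched motifs in GRCm38.p6, over 10886 of the 10889 TSS-proximal regions, the rest lying on the mitochondrial genome. Measures were checked on simulated peaks. Tests were two-sided exact permutation tests. Alternatives were windows, list lengths, ranks, left-out libraries and a replicate block. All 10 genes and the lists were named by rule (with the 3 genes nearest to Yy1), and members and lists were chosen with earlier results of these data known. The 8 histone mark samples were not analysed here.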

Additional observations from a re-analysis of the deposited data

How the results depend on the processing

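No difference between genotypes passed a threshold under any setting, and 2 libraries per genotype set that limit. The difference of 0.50 in the number of genes with a peak became 0.00 with the first 50% of each list and ranged from -0.50 to 1.50 when a library was left out. It was negative without WT replicate 1. The 2 lower-ranked genes became 1 (Actr8) with a 1 kb window, with percentiles among all peaks, with the order in the list as rank, and with only those peaks that cover a start (chosen after seeing the data). With a library left out, where the remaining replicate pair alone decides, they were 3 to 5, and 5 without WT replicate 1 or without XistΔ/Δ replicate 1. The 4 higher-ranked genes became 3 with the first 50% of each list. They became 5 with lists of equal length and with percentiles among all peaks, and 5 to 6 with a library left out. With the order in the list as rank they were again 4, namely Yy1, Ino80b, Ino80c and Ruvbl2. With a 1 kb window the genes with a TSS-distal gene body peak were 1 (Yy1) in place of 0. Genes with AANATGGC were 3 over 500 bases, the main measure, and 6 over whole regions.

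Single genes changed direction as follows. The Ino80c difference was -0.97 with the first 50% of each list, and with the order in the list Ino80 gave -0.02 and Ino80b 4.01. Leaving out a library gave ranges of -0.11 to 0.71 at Yy1 (negative without WT replicate 2), -0.89 to 5.47 at Ino80 (negative without XistΔ/Δ replicate 1), -10.46 to 10.71 at Ino80c (negative without WT replicate 1 or XistΔ/Δ replicate 2), -11.93 to 7.41 at Actr5 (positive without WT replicate 1 or XistΔ/Δ replicate 2), -30.75 to 17.65 at Nfrkb (positive without WT replicate 2 or XistΔ/Δ replicate 1), -1.42 to 25.97 at Ruvbl1 (negative without WT replicate 1 or XistΔ/Δ replicate 1) and -0.33 to 2.49 at Ruvbl2 (negative without XistΔ/Δ replicate 2). Ino80b (-31.65 to -1.58), Ino80e (2.21 to 8.87) and Actr8 (-6.30 to -1.36) kept their direction there, and Actr8 gave -0.08 with the order in the list. The cause was not tested.

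With the replicate block the difference in the number of genes with a peak was again 0.50 (exact p = 1.00), and no call changed; the block cannot give a p-value below 0.50. Deviations from the genotype means over 7839 genes had r = 0.30 between libraries of one replicate number. With 2 libraries per genotype the deviations of a gene are equal and opposite, so both replicate numbers must give the same r. Peak widths and the percentile scale also went with the replicate number, so r cannot tell what such libraries share. The labels do not say what the number stands for.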
